A study of Mus musculus with 12 samples.

Results

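This report describes the genotype by immune complex interaction in mouse neutrophils, that is, how far the transcript response to an immune complex surface differed between wild type and Card9-/- cells. The difference was taken within each experiment as the Card9-/- response (IC minus Control) minus the wild type response (IC minus Control), in log2, so a value of -1 means that the response was 2-fold smaller in Card9-/- cells. It used all 12 samples and 28939 of the 35556 rows of the deposited table. The rows are transcript clusters, sets of array probes that cover a gene. The other 6617 rows have no entry in the annotation, lie below its first identifier and were read as control probe sets.

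Each genotype, Wild type and Card9-/-, was run on both surfaces, Control and IC, which gave 4 groups of 3 arrays, 1 per experiment. The experiment number is given by the labels, and each of the 3 experiments held all 4 groups. The cells are described as Ly6G+ neutrophils on the C57BL/6 background, and the study used adult mice of both sexes. Its methods give sorting on Ly6G for a test of CARD9 deletion and not for the arrays. Per the study's methods, neutrophils came from bone marrow over a density gradient, and Card9-/- mice were homozygous for a germline mutation, so the loss was not limited to neutrophils. IC cells were plated for 4 h on a surface coated with an antigen and IgG against it, and adherent and nonadherent cells were combined before total RNA was amplified for the arrays. The labels and methods do not say what the Control surface carried or how many mice were pooled. If the 3 experiments were not separate animals, the errors below cover technical spread only.

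As background, immune complexes bind Fc gamma receptors on neutrophils, which signal through Src-family kinases, Syk and PLC gamma 2. CARD9 is an adapter protein of myeloid cells that joins BCL10 and MALT1 and couples Syk-dependent receptors to the transcription factor NF-kB. Known NF-kB targets include chemokines, cytokines and the inhibitors that shut NF-kB off again. The comparison asks which transcript responses to immune complexes depend on CARD9, which do not, and which are larger without it.

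Card9 itself lay between 8.08 and 8.75 on the 6 wild type arrays and between 5.56 and 6.42 on the 6 Card9-/- arrays, so every array matched its genotype label. It is not known here whether the probes lie inside the mutated part of the gene. The 21 measured neutrophil granule and surface genes averaged between 11.55 and 11.99 on every array, and Ly6g lay between 11.84 and 12.64. Experiment 3 stood apart, with array medians from 5.27 to 5.39, against 5.70 to 5.76 in experiment 1 and 5.86 to 5.93 in experiment 2. In experiment 3 the Wild type Control array also had a median of 5.01 over the rows left out, against 4.66 to 4.81 on the other 3 arrays. Among the 14469 clusters above the median signal, 427 were at least 2-fold lower on IC in wild type cells of experiment 3. Card9-/- cells had 48 such clusters there. The wild type counts for experiments 1 and 2 were 5 and 5, against 4 and 3 in Card9-/- cells. Clusters at least 2-fold higher on IC numbered 178, 53 and 138 in wild type cells of experiments 1, 2 and 3. For Card9-/- cells the counts were 36, 11 and 176, so only experiment 3 had more in Card9-/- cells. The part of the Wild type Control array of experiment 3 in the results was not tested, and values are given for each experiment.

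No cluster passed the test for the difference of responses. Over 28939 clusters, limma called 0 at an adjusted p under 0.05 (0 percent), and the smallest adjusted p was 0.249. At an unadjusted p under 0.05, 767 clusters were lower in Card9-/- cells (2.65 percent) and 298 were higher (1.03 percent), 1065 in all, where 1447 would be expected if no response differed. Without experiment 1 the number was 636. The split of these clusters by direction depended on the scaling and on the signal. With each array centred on its median, 306 were lower and 659 higher, and after quantile normalization 509 were lower and 452 higher. On the deposited scale, 196 of the 14469 clusters above the median signal were lower and 174 higher. By experiment, the shift that centring took out was -0.04, -0.02 and -0.16. The median standard error of a difference was 0.178, and the median 95% interval reached 0.39 to either side. The directions given below for single genes are therefore values with their intervals and not calls. Since RNA was taken from whole samples, fewer cells of a type and less RNA per cell cannot be told apart.

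Genes with a smaller response in Card9-/- cells are described first. A gene is called lower or higher in Card9-/- cells here for the sign of its difference of responses, and not for its level. The 12 named here had the smallest p among genes above the median signal (5.65) that differed in the same direction in all 3 experiments. They were Rab20, Adhfe1, Saa3, Atmin, Acp5, Cxcl3, Ciapin1, Il1a, Cxcl1, Pbld1, Snx20 and Nfkbid. Their differences ranged from -1.89 to -0.49 and their unadjusted p from 0.000424 to 0.00496, and the limma adjusted p was 0.999 for each. A difference below 0 in all 3 experiments was itself common, at 16.6 percent of all clusters and 12.9 percent of those above the median signal. All 12 were higher on IC in wild type cells in every experiment, and 2 of them, Atmin and Acp5, were also higher on IC in every Card9-/- experiment. Of the 14469 clusters above the median signal, 1893 were higher on IC in every wild type experiment and 1666 in every Card9-/- experiment. For 11 of the 12, all but Pbld1, the Wild type IC array was the highest of the 4 arrays in every experiment, a share that was not counted over all clusters. The genes were picked for a difference made from these same arrays, so this pattern follows in part from the choice.

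The promoters of the 12 genes were searched for the NF-kB consensus, a motif of 10 bases bound by NF-kB dimers, on both strands. Windows of 300 bases around each annotated start site, most of it upstream, came from RefSeq (GRCm38.p6). Of the 12 genes, 10 had a window, all but Adhfe1 and Snx20. The motif was in 3 of their 15 windows (20 percent), those of Cxcl1, Cxcl3 and Nfkbid, against 2779 of all 32851 windows (8.46 percent). Among the genes of the NF-kB list described further on, it was in 12 of 28 windows (42.9 percent). The stretches that hold the motif are shown because these genes were lower in Card9-/- cells in all 3 experiments, with Rhov, described further on, as a gene with a match whose difference ran in both directions. Capitals mark the motif. In Cxcl1 and Cxcl3, 2 matches overlap by all but 1 base, and in Nfkbid 2 matches lie apart in 1 of its 3 windows.
Cxcl1, chr5:90891154-90891204, plus strand: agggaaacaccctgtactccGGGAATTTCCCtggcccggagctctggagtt
Cxcl3, chr5:90786008-90786058, plus strand: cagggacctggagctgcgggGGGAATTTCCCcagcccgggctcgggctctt
Nfkbid, chr7:30422160-30422254, plus strand: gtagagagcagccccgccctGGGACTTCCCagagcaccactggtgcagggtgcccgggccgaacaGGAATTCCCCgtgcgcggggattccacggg
Rhov, chr2:119271299-119271348, minus strand: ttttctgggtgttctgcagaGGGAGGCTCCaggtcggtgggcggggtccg
A match is a description of the letters and not a site of binding. Of the 12 genes named for a larger or higher response, 9 had a window and the motif was in 0 of 11. Among the genes named by the average response it was in 1 of 19 windows (5.26 percent), that of Rhov. With so few windows, these counts cannot show a tie between the motif and the direction of a difference.

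Rab20, a small GTPase that acts in phagosome maturation, had the smallest p of the named genes. Its signal went from 7.81, 8.16 and 7.86 on Wild type Control in experiments 1, 2 and 3 to 8.93, 9.01 and 8.88 on Wild type IC. In Card9-/- cells it went from 7.66, 8.0 and 7.60 to 7.84, 7.94 and 8.08. All 3 Wild type IC arrays lay above the other 9, and the Card9-/- Control and IC arrays overlapped. The response was 1.00 in wild type and 0.20 in Card9-/- cells, a difference of -0.80 ± 0.16 (SE, n = 3 experiments, 95% interval -1.16 to -0.44), with -0.95, -0.91 and -0.54 in the 3 experiments.

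Il1a, which encodes the cytokine interleukin-1 alpha, had one of the largest differences. It measured 3.74, 7.20 and 5.68 on Wild type Control and 6.57, 8.56 and 8.73 on Wild type IC. The Card9-/- arrays went from 3.21, 5.15 and 4.44 to 3.81, 5.13 and 5.79. Levels differed widely between experiments, and within each experiment the Wild type IC array was the highest. The response was 2.42 in wild type and 0.64 in Card9-/- cells (difference -1.78 ± 0.49, 95% interval -2.85 to -0.70). Il1a was already lower in Card9-/- cells on the Control surface, by a mean of -1.27, and on IC the gap was -3.05. Its mean signal, 5.67, lay just above the median signal of 5.65, which it passed through Wild type IC alone. That group averaged 7.96, against 5.54 on Wild type Control, 4.27 on Card9-/- Control and 4.91 on Card9-/- IC. The filter thus gives its difference no separate support.

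Saa3, an acute-phase serum amyloid A protein, measured 4.48, 9.24 and 5.82 on Wild type Control and 6.20, 9.87 and 8.68 on Wild type IC. The Card9-/- Control arrays measured 4.54, 8.31 and 5.61 and the IC arrays 4.30, 7.96 and 5.73. Its level was above 7 on all 4 arrays of experiment 2, whatever the group. The wild type response was 1.73 and the Card9-/- response -0.16 (difference -1.89 ± 0.44, 95% interval -2.86 to -0.92).

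**Figure D1:**
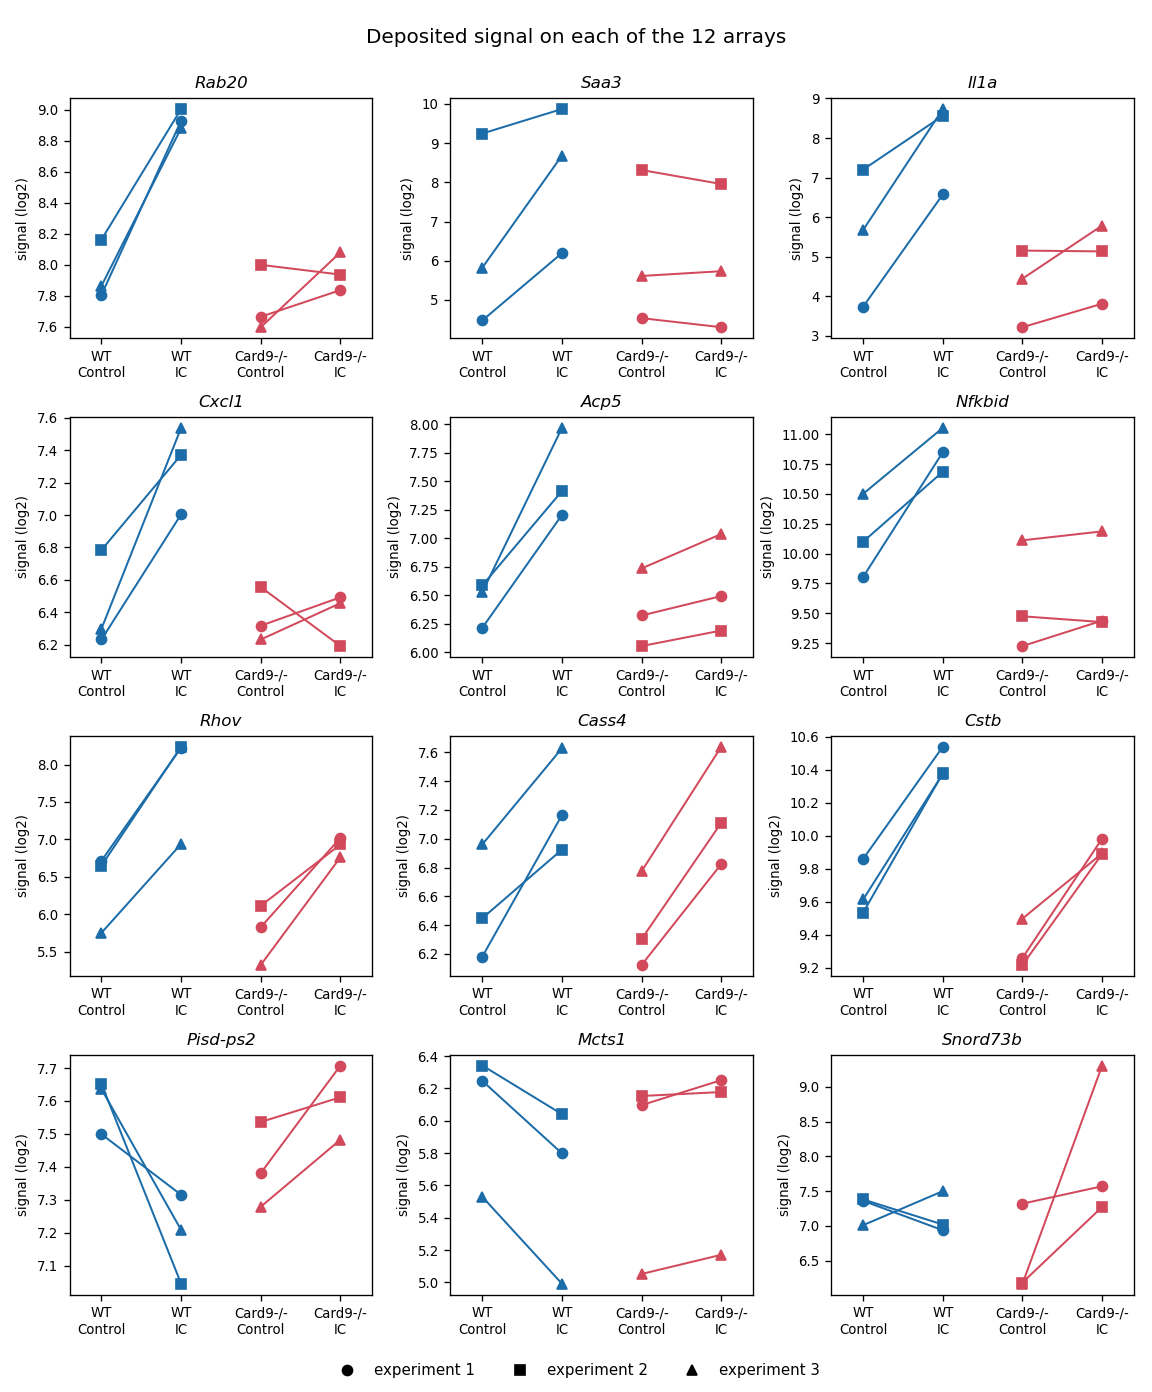
Deposited log2 signal of 12 genes (y axis) on each of the 12 arrays, with a line from Control to IC for each experiment, wild type (WT) in blue and Card9-/- in red. The wild type lines of Rab20, Saa3, Il1a, Cxcl1, Acp5 and Nfkbid climb more steeply than the Card9-/- lines, those of Rhov, Cass4 and Cstb climb in both genotypes, and those of Pisd-ps2 and Mcts1 descend in wild type alone.

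The neutrophil-attracting chemokines Cxcl1 and Cxcl3, ligands of CXCR2, were higher on IC in wild type cells and near their Control level in Card9-/- cells. Cxcl1 measured 6.23, 6.78 and 6.30 on Wild type Control, 7.0, 7.37 and 7.54 on Wild type IC, 6.32, 6.55 and 6.23 on Card9-/- Control and 6.49, 6.19 and 6.46 on Card9-/- IC. The 3 Wild type IC arrays lay above the other 9, and the response was 0.87 against 0.01 (difference -0.86 ± 0.24, 95% interval -1.37 to -0.34). Cxcl3 gave wild type responses of 0.88, 0.97 and 0.64 and Card9-/- responses of -0.04, -0.39 and 0.37 (difference -0.85 ± 0.22). Of the 14 chemokines measured, 11 had a difference below 0, 7 were lower in all 3 experiments and 3 had an unadjusted p under 0.05, Cxcl1, Cxcl3 and Cxcl16. Over all clusters 56.4 percent had a difference below 0, 16.6 percent were lower in all 3 experiments and 2.65 percent were lower at that p. The list's median was -0.15, against -0.03 over all clusters. The mean signal of Cxcl16, 5.60, lay below the median signal of 5.65, and that of Cxcl3, 5.68, lay just above it. Cxcl3 passed it through Wild type IC alone, which averaged 6.30. Its means were 5.47 on Wild type Control, 5.48 on Card9-/- Control and 5.46 on Card9-/- IC. Cxcl10, an interferon-inducible chemokine, differed by -1.04 (95% interval -2.21 to 0.12).

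Acp5, the lysosomal tartrate-resistant acid phosphatase, measured 6.21, 6.59 and 6.53 on Wild type Control and 7.21, 7.42 and 7.97 on Wild type IC. In Card9-/- cells it measured 6.32, 6.05 and 6.74 on Control and 6.49, 6.19 and 7.04 on IC surfaces. Both genotypes were higher on IC in every experiment, by 1.09 in wild type and 0.20 in Card9-/- cells (difference -0.88 ± 0.23, 95% interval -1.38 to -0.39). Of the 20 lysosome and lipid handling genes measured, Acp5 alone had an unadjusted p under 0.05, and the list's median was 0.05.

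The other genes of this group had wild type responses between 0.24 and 0.88. Atmin, a zinc finger transcription factor that binds the ATM kinase, had responses of 0.74, 1.23 and 0.68 in wild type and 0.04, 0.07 and 0.23 in Card9-/- cells. Ciapin1, which acts in iron-sulfur protein assembly, had 0.73, 0.57 and 0.38 in wild type and 0.00, -0.06 and -0.41 in Card9-/- cells. Snx20, a sorting nexin that binds the selectin ligand PSGL-1, had 0.64, 0.41 and 0.52 in wild type and -0.11, 0.07 and 0.14 in Card9-/- cells. Each difference lay below 0 in every experiment, and the fitted values were -0.77 ± 0.19, -0.72 ± 0.19 and -0.49 ± 0.14. Adhfe1, a mitochondrial dehydrogenase, and Pbld1 differed because the genotypes went opposite ways, with mean responses of 0.24 and 0.33 in wild type and of -0.44 and -0.23 in Card9-/- cells.

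**Figure D2:**
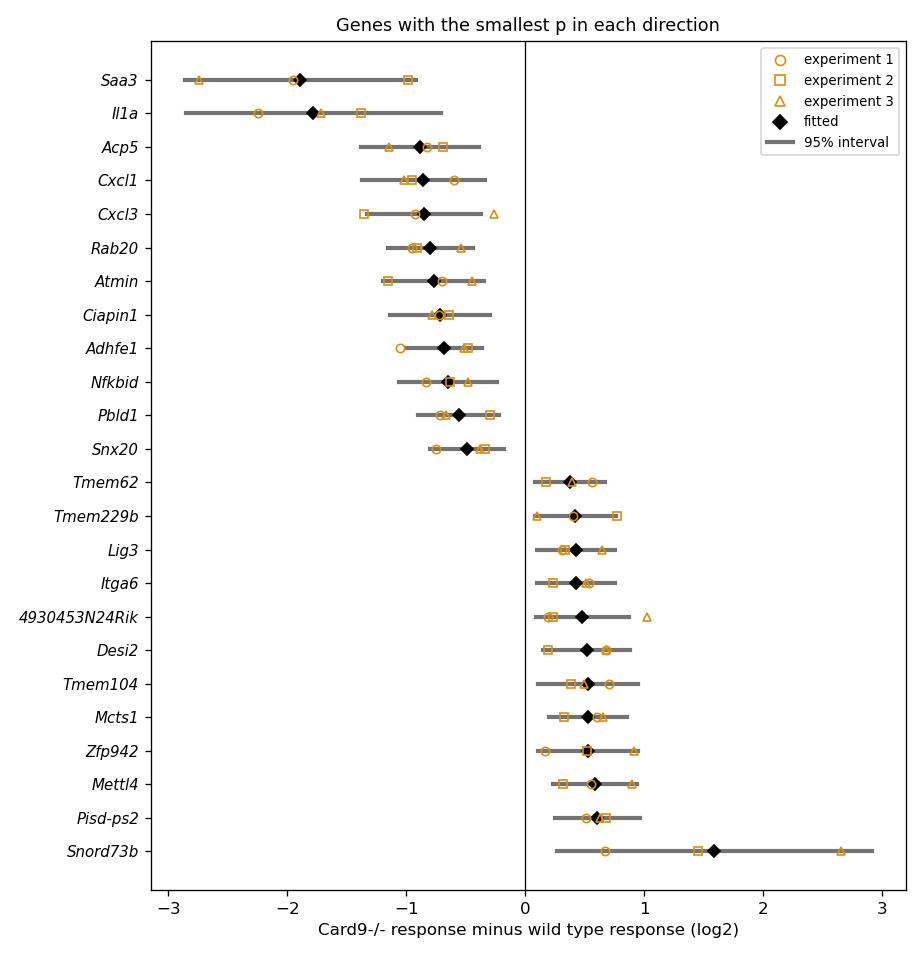
Card9-/- response minus wild type response (x axis, log2) for the 12 genes with the smallest p in each direction (rows), as 1 open symbol per experiment, the fitted value (diamond) and its 95% interval (bar). The genes were picked for these values, so the intervals lie away from 0 by choice, and they are widest for Saa3, Il1a and Snord73b.

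The list of NF-kB subunits, inhibitors and feedback genes had the lowest median of the 22 lists. Of its 27 genes 24 were measured, and 22 of them had a difference below 0, 16 were lower in all 3 experiments and 13 had an unadjusted p under 0.05, but none passed the limma adjusted p. The shares over all clusters were 56.4 percent, 16.6 percent and 2.65 percent. Of the 14469 clusters above the median signal, 6720 were below 0, 12.9 percent were lower in all 3 and 196 were lower at that p. The list's median difference was -0.65, against -0.03 over all clusters, with values of -1.12, -0.53 and -0.28 in experiments 1, 2 and 3. Without experiment 1 the median was -0.49. The median wild type response was 0.46 and the median Card9-/- response was -0.14. Of the 24, all above the median signal, 11 were higher on IC in every wild type experiment, and 0 were so in every Card9-/- experiment. Of the 14469 clusters above the median signal, 1893 and 1666 were so.

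Nfkbid, a nuclear inhibitor of the I kappa B family, was the member with the smallest p. It measured 9.80, 10.10 and 10.50 on Wild type Control, 10.85, 10.69 and 11.05 on Wild type IC, 9.22, 9.47 and 10.11 on Card9-/- Control and 9.44, 9.43 and 10.19 on Card9-/- IC. The Wild type IC arrays lay above all others, and the difference was -0.65 ± 0.19 (95% interval -1.06 to -0.24). Of the other inhibitors, Nfkbia, the classical NF-kB inhibitor I kappa B alpha, gave -1.63, -0.85 and -0.16 in the 3 experiments, Nfkbie gave -2.07, -0.74 and -0.77, and Nfkbib gave -0.74, -0.74 and -0.44. The differences of Nfkbia and Nfkbie were largest in experiment 1. Tnfaip3, the ubiquitin-editing inhibitor A20, had -2.44, -1.03 and -0.40, and Traf1, an adapter of TNF receptors, had -2.06, -0.92 and -0.55.

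Among the subunits, Nfkb2 and Relb, which form the non-canonical dimer, had differences of -0.87 (95% interval -1.74 to -0.01) and -0.83 (95% interval -1.55 to -0.12). Rela, the p65 subunit, had -0.21 (95% interval -0.65 to 0.23), and the kinase subunit Ikbkb had -0.01 (95% interval -0.37 to 0.36). Ikbke, an inducible kinase related to the I kappa B kinases, had the lowest mean value of the list at -1.64, but its values were -3.32, -1.78 and 0.20. Map3k8, the kinase TPL2, had -1.69, -0.50 and -0.97 and a fitted difference of -1.06 ± 0.33. Nfkb1, Chuk and Bcl2a1b were not analysed here.

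Tnf and Icam1 were higher on IC in every wild type experiment and lower in every Card9-/- experiment. Tnf, which encodes the cytokine TNF, measured 8.89, 12.08 and 10.89 on Wild type Control and 11.34, 12.22 and 11.88 on Wild type IC. In Card9-/- cells it measured 9.06, 11.02 and 9.89 on Control and 8.90, 10.29 and 9.81 on IC. The wild type response was thus 2.45 in experiment 1 and 0.14 in experiment 2, where the Control array was already high, and the fitted difference was -1.51 ± 0.45 (95% interval -2.49 to -0.53). Icam1, an adhesion molecule that binds leukocyte integrins, had wild type responses of 2.29, 0.53 and 0.51 and Card9-/- responses of -0.21, -0.76 and -0.08 (difference -1.46 ± 0.47). Such opposite movement, up in wild type and down in Card9-/- in all 3 experiments, was found in 2.16 percent of all clusters.

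Of 21 cytokines and growth factors measured, 19 had a difference below 0, 10 were lower in all 3 experiments and 4 had an unadjusted p under 0.05 (56.4, 16.6 and 2.65 percent over all clusters), and the median was -0.18. Csf3, the growth factor G-CSF, differed by -0.47 ± 0.19, with -0.09, -0.66 and -0.65 in the experiments. Its mean signal, 5.62, lay below the median signal of 5.65. Il10, an anti-inflammatory cytokine, had -2.05, -2.71 and 0.24, so that its fitted -1.51 came from experiments 1 and 2. Il6 had -0.90, -0.49 and 1.31, which gave -0.03 with a 95% interval from -1.92 to 1.86. Csf1, the macrophage growth factor, was higher on IC by 1.14 in wild type and 1.35 in Card9-/- cells, with a difference of 0.21 (95% interval -0.79 to 1.21).

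A further set of transcripts was chosen because the study also measured them by other means. The difference was -0.86 for Cxcl1, as given above, and -0.49 for Cxcl2, whose 95% interval ran from -2.17 to 1.19. Cxcl2, a CXCR2 ligand like Cxcl1, had wild type responses of 3.26, 1.14 and 0.63 and Card9-/- responses of 2.47, 0.48 and 0.60, so it was higher on IC in both genotypes in every experiment. Ccl3, the chemokine MIP-1 alpha, differed by 0.22 (95% interval -0.58 to 1.03) and had signals of 10.57 or more on all 12 arrays. Il1b, the cytokine interleukin-1 beta, differed by -0.08 (95% interval -0.90 to 0.73), with responses of 1.43, -0.07 and 0.08 in wild type and 0.99, -0.13 and 0.34 in Card9-/- cells. Both Ccl3 and Il1b changed sign without experiment 1, to -0.04 and 0.10. Both were above 12 on the Control arrays of both genotypes in experiments 2 and 3, where their responses lay between -0.13 and 0.34.

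The 3 leukotriene B4 synthesis genes of that set had small differences. Alox5, which encodes 5-lipoxygenase, lay between 10.37 and 10.96 on all 12 arrays and differed by 0.13 (95% interval -0.21 to 0.47). Alox5ap, its activating protein, differed by 0.10 (95% interval -0.23 to 0.43), and Lta4h, leukotriene A4 hydrolase, by 0.15 (95% interval -0.23 to 0.54). A 2-fold difference in either direction lay outside each of these intervals, as for 95 percent of clusters above the median signal, so it is a statement of precision. Alox5 and Lta4h responded little in wild type cells, by -0.19 and -0.16. The intervals therefore cannot show whether responses this small depend on CARD9. On the prostaglandin side, Ptges, prostaglandin E synthase, had wild type responses of 0.74, 0.38 and 0.31 and Card9-/- responses of -0.44, -0.63 and 0.16 (difference -0.78 ± 0.31). Ptgs2, cyclooxygenase 2, had -1.08, -0.33 and 0.00.

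For receptors and kinases upstream of CARD9 the differences were small. Of 21 listed Fc receptor signalling genes, 19 were measured, their differences lay between -0.16 and 0.27, and all 19 95% intervals lay within -1 and 1. That was also so for 95 percent of clusters above the median signal, so it is a statement of precision. Fcgr4, an activating IgG receptor, was higher on IC by 0.35 in wild type and 0.36 in Card9-/- cells (difference 0.01, 95% interval -0.33 to 0.35). Syk differed by 0.08 (95% interval -0.31 to 0.47), and Pik3cg, a phosphoinositide kinase subunit that was lower on IC in all 6 pairs, by 0.27 (95% interval -0.14 to 0.69). Of 12 measured genes of the CARD9 complex, Malt1, the paracaspase partner of BCL10, had the lowest value at -0.47 (95% interval -1.13 to 0.19), with -1.23, -0.49 and 0.30 in the experiments. Bcl10 differed by -0.12 (95% interval -0.61 to 0.37).

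Immediate early genes, which need no new protein to be transcribed, had a median of -0.11. Of 31 measured, all above the median signal, 20 had a difference below 0. That held for 56.4 percent of all clusters and for 6720 of the 14469 above the median signal. A total of 8 were lower in all 3 experiments and 5 had an unadjusted p under 0.05, against 16.6 percent and 2.65 percent over all clusters. Above the median signal, 12.9 percent were lower in all 3 and 196 of the 14469 were lower at that p. Dusp2, a phosphatase of MAP kinases, had responses of 1.21, 0.54 and 0.47 in wild type and 0.00, -0.11 and 0.09 in Card9-/- cells (difference -0.75 ± 0.25). Gadd45b, a stress-induced signalling regulator, differed by -0.67 ± 0.26 and was also lower in Card9-/- cells on Control, by a mean of -0.91. Nr4a1, a nuclear receptor, differed by -2.73, -0.75 and -0.32. Other members had mean responses of like size. Dusp1, another such phosphatase, responded by 0.54 and 0.56, and Fos, an AP-1 subunit, by 0.42 and 0.45, although the 95% intervals of their differences were wide, from -0.68 to 0.72 and from -0.72 to 0.77.

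**Figure D3:**
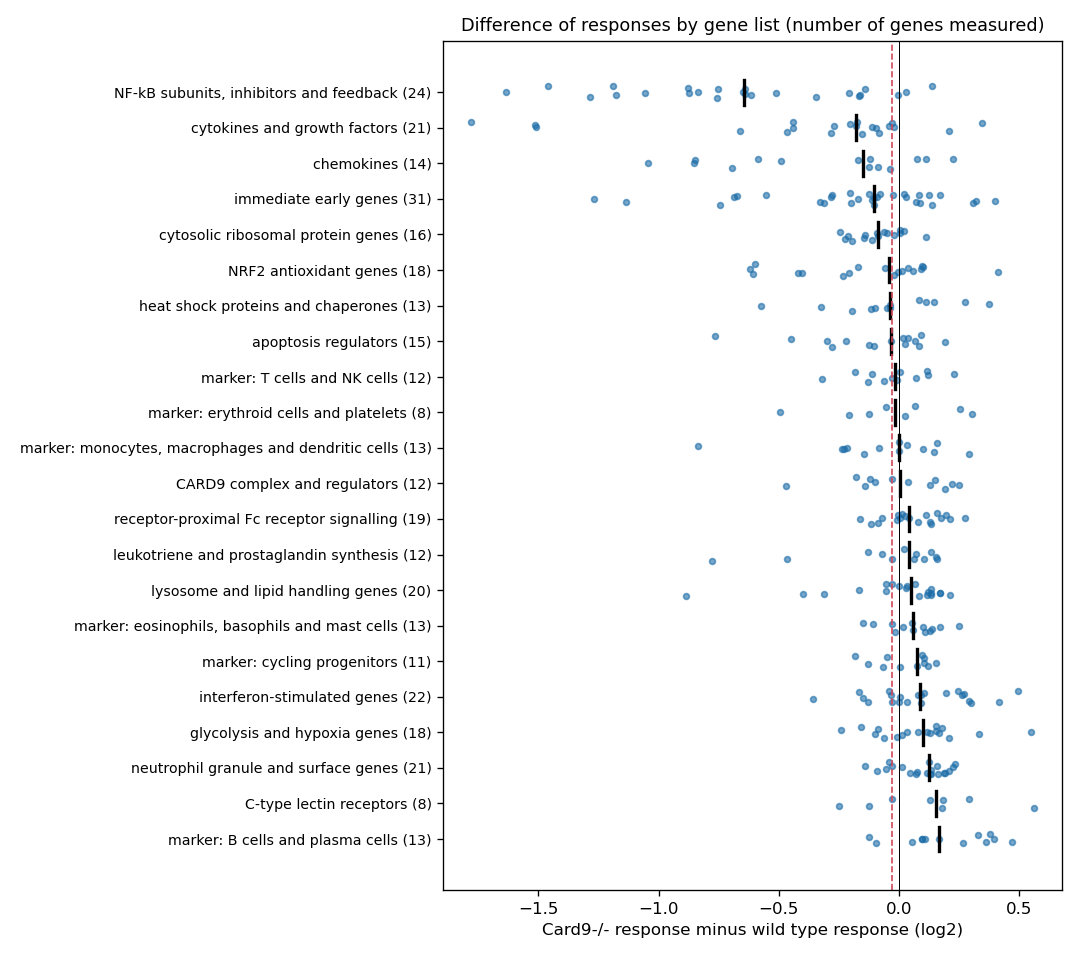
Card9-/- response minus wild type response (x axis, log2) of every measured gene in 22 lists (rows), 1 point per gene, with the list's median (black bar) and the median of all 28939 clusters (dashed line, -0.03). The NF-kB list has the lowest median, -0.65, and the medians of the other 21 lists lie between -0.18 and 0.17.

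To describe responses that did not depend on the choice by difference, clusters were ranked by the response averaged over both genotypes, a contrast that is orthogonal to the difference in this balanced design. The choice is independent of the difference only where both genotypes vary alike, and the median standard deviation of a response over experiments was 0.203 in wild type and 0.171 in Card9-/- cells. Rhov, Cass4 and Cstb passed the limma adjusted p for the average response, 3 of 28939 clusters (0.0104 percent), and all 3 rose. Without experiment 1 the number was 0, without experiment 2 it was 1 and without experiment 3 it was 24.

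Rhov, a small GTPase, rose by 1.29 on average (limma adjusted p 0.017). It measured 6.72, 6.65 and 5.75 on Wild type Control and 8.22, 8.24 and 6.94 on Wild type IC. In Card9-/- cells it measured 5.83, 6.11 and 5.32 on Control and 7.02, 6.93 and 6.76 on IC. It was lower in Card9-/- cells on both surfaces in all 3 experiments, while the response was 1.43 in wild type and 1.15 in Card9-/- cells (difference -0.28, 95% interval -0.85 to 0.29).

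Cass4, a scaffold protein of focal adhesions, rose by 0.75 (limma adjusted p 0.017), with responses of 0.98, 0.48 and 0.67 in wild type and 0.70, 0.81 and 0.86 in Card9-/- cells. The difference was 0.08 (95% interval -0.27 to 0.44) and turned to -0.04 without experiment 2. Cstb, the cathepsin inhibitor cystatin B, rose by 0.68 (limma adjusted p 0.0196), from 9.86, 9.53 and 9.61 to 10.54, 10.38 and 10.38 in wild type and from 9.26, 9.22 and 9.50 to 9.98, 9.89 and 9.89 in Card9-/- cells. All 6 IC arrays lay above all 6 Control arrays, and the difference was -0.17 (95% interval -0.50 to 0.17). For these 3 genes the 95% interval held 0 and left out a 2-fold difference in either direction. The latter was so for 95 percent of clusters above the median signal.

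The next genes higher on IC by this ranking did not pass the adjusted p. Ciart, a repressor of the circadian clock, had wild type responses of 0.98, 1.56 and 0.80 and Card9-/- responses of 1.34, 1.23 and 0.58 (difference -0.06, 95% interval -0.68 to 0.55). Cd80, a costimulatory ligand of T cells, responded by 0.66 and 0.55, and Egr1, an early transcription factor, by 0.69 and 0.61. Of the 10 genes named as highest by average response, 8 had an interval that held 0, and the other 2 were Rab20 and Il1a. An interval that holds 0 is the usual case and does not show that a response is independent of CARD9. Of the 14469 clusters above the median signal, 196 had an interval below 0 and 174 had one above 0. Clec4n, the C-type lectin receptor dectin-2, was higher on IC by 1.60 in wild type and 2.16 in Card9-/- cells, and its interval, from -1.52 to 2.64, settled no direction.

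**Figure D4:**
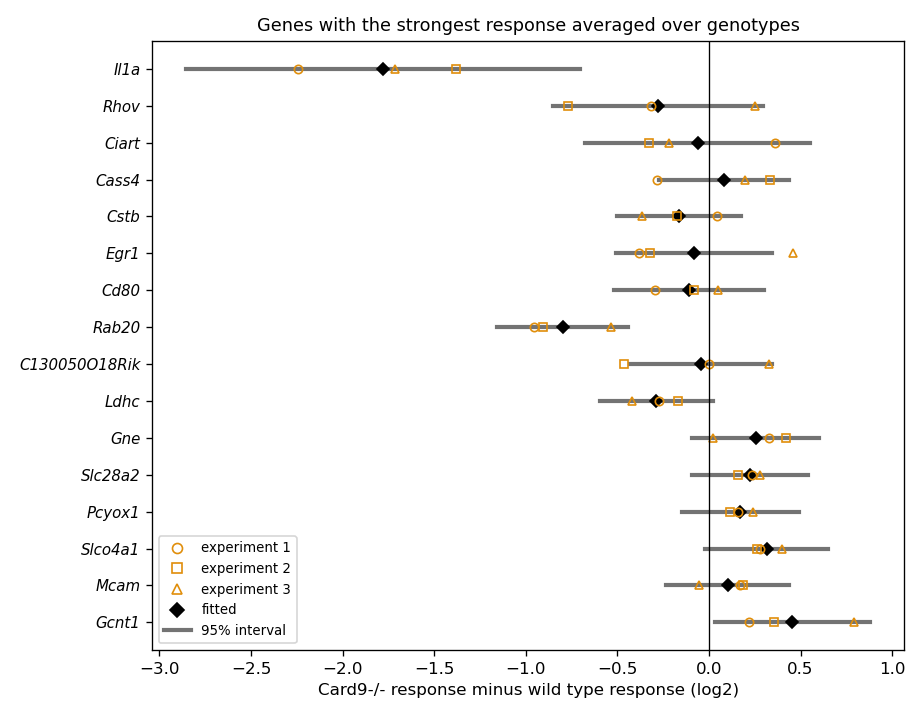
Card9-/- response minus wild type response (x axis, log2) for the 10 genes highest and the 6 lowest on IC by moderated t of the average response (rows, ordered by average response), with symbols for each experiment, the fitted value (diamond) and its 95% interval (bar). The intervals of Il1a, Rab20 and Gcnt1 lie to 1 side of 0, and the other 13 hold 0, which is the usual case among clusters above the median signal.

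The 100 clusters above the median signal that were highest on IC by this ranking had a median response of 0.58 in wild type and 0.39 in Card9-/- cells. Their median difference was -0.20, against 0.02 over all clusters above the median signal. Of the 100, 77 had a difference below 0 and 43 were lower in all 3 experiments. Of the 14469 clusters above the median signal, 6720 were below 0 and 12.9 percent were lower in all 3. By experiment, the median was -0.24, -0.28 and -0.07. When experiment 1 was left out and the 100 were chosen anew the median was -0.004, and without experiment 3 it was -0.36.

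The 100 clusters lowest on IC had a median response of -0.48 in wild type and -0.24 in Card9-/- cells. The median difference was 0.25, with 0.22, 0.17 and 0.32 in the 3 experiments. Of these 100, 98 had a difference above 0 and 80 were higher in all 3 experiments. Of the 14469 clusters above the median signal, 7749 were above 0 and 18.2 percent were higher in all 3. The latter share was 12.4 percent over all clusters. Chosen anew without experiment 1, the median was 1.06. The wild type response was the larger one in most of both sets. In wild type cells the experiments also varied more (median standard deviation 0.221 above the median signal, against 0.163), and its part in these medians was not tested.

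**Figure D5:**
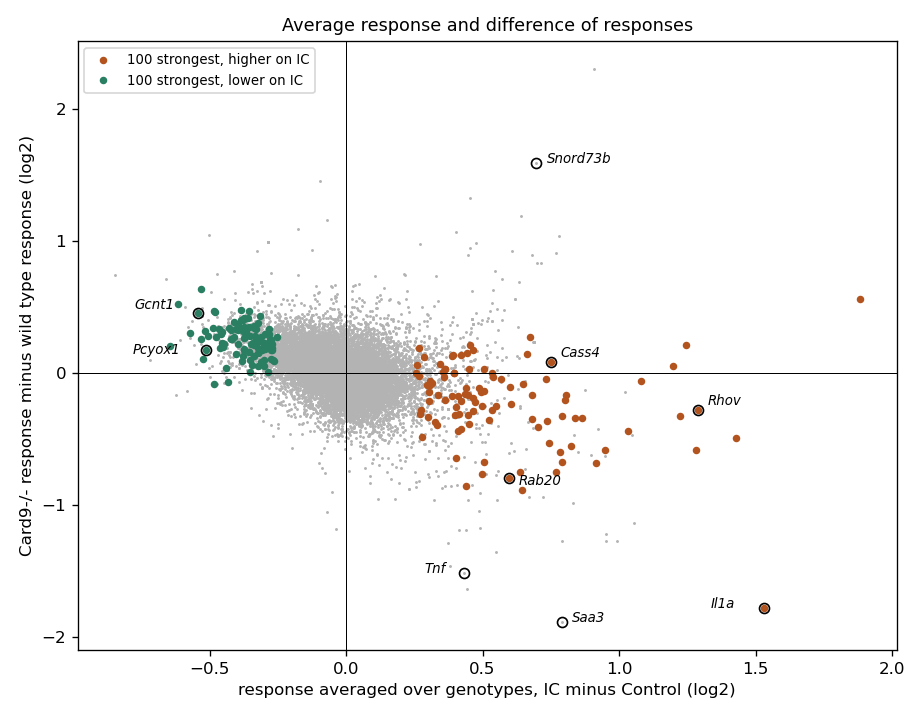
Response averaged over both genotypes (x axis, log2, IC minus Control) and Card9-/- response minus wild type response (y axis, log2) for the 14469 clusters above the median signal (grey points), with the 100 strongest in each direction in colour and 9 named genes circled. The coloured points on the left lie above 0 in 98 of 100 cases, and those on the right lie below 0 in 77 of 100.

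Of the 6 genes named as lowest by average response, all were lower on IC in every experiment of both genotypes. They were picked for the average of these same responses, so this agreement follows in large part from the choice. Gcnt1, a glycosyltransferase that makes core 2 O-glycans for selectin ligands, measured 9.91, 9.12 and 8.29 on Wild type Control and 9.32, 8.61 and 7.09 on Wild type IC. In Card9-/- cells it measured 9.84, 9.16 and 7.86 on Control and 9.46, 9.0 and 7.45 on IC (difference 0.45, 95% interval 0.03 to 0.88). Gne, the enzyme that starts sialic acid synthesis, differed by 0.26 (95% interval -0.09 to 0.60). Slco4a1, an organic anion transporter, differed by 0.31 and Pcyox1, which breaks down prenylated cysteines, by 0.17. Mcam, an adhesion molecule of the immunoglobulin superfamily, differed by 0.10, with 0.17, 0.19 and -0.06 in the experiments. None passed the limma adjusted p, either for the average response or for the difference.

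The genes that were higher in Card9-/- cells were, with 1 exception, lower on IC in wild type cells. The 12 with the smallest p among genes above the median signal that were higher in all 3 experiments were Pisd-ps2, Mettl4, Mcts1, Desi2, Itga6, Lig3, Tmem62, Zfp942, Tmem104, Tmem229b, 4930453N24Rik and Snord73b. Their differences ranged from 0.38 to 1.59 and their unadjusted p from 0.00303 to 0.0224, and the limma adjusted p was 0.999 for each. Of the 12, 11 were lower on IC in all 3 wild type experiments, 5 were higher on IC in all 3 Card9-/- experiments and 1, Itga6, was lower in all 3. Of the 14469 clusters above the median signal, 1666 were higher on IC in all 3 Card9-/- experiments, and the shares lower on IC were not counted. For 9 of the 12 the Wild type IC array was the lowest of the 4 arrays in every experiment. These genes too were picked for a difference made from these arrays, so this pattern follows in part from the choice.

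Pisd-ps2, a pseudogene related to phosphatidylserine decarboxylase, measured 7.50, 7.65 and 7.64 on Wild type Control, 7.32, 7.05 and 7.21 on Wild type IC, 7.38, 7.54 and 7.28 on Card9-/- Control and 7.71, 7.61 and 7.48 on Card9-/- IC. The difference was 0.61 ± 0.16 (95% interval 0.25 to 0.96). Its probes may also read transcripts of the related gene, so the value is uncertain. Down in wild type and up in Card9-/- cells in all 3 experiments each was found in 0.619 percent of all clusters. Mcts1, a factor of translation re-initiation, measured 6.25, 6.34 and 5.53 on Wild type Control, 5.80, 6.04 and 4.99 on Wild type IC, 6.10, 6.15 and 5.05 on Card9-/- Control and 6.25, 6.18 and 5.17 on Card9-/- IC (difference 0.53 ± 0.15).

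The other genes of the group had differences between 0.38 and 0.59. Their spread over experiments varied, from 0.70, 0.38 and 0.50 for Tmem104 to 0.19, 0.23 and 1.02 for 4930453N24Rik. Mettl4, a methyltransferase, had wild type responses of -0.22, -0.41 and -0.60 and Card9-/- responses of 0.33, -0.09 and 0.30. Itga6, the integrin alpha 6 chain, had -0.64, -0.39 and -0.55 in wild type and -0.11, -0.16 and -0.04 in Card9-/- cells (difference 0.43 ± 0.15). Lig3, a DNA ligase of base excision repair, had -0.36, -0.15 and -0.60 in wild type and -0.05, 0.19 and 0.05 in Card9-/- cells. Itga6 was thus lower on IC in both genotypes, and Lig3 in wild type alone in all 3 experiments. Of the 12, 7 were lower in Card9-/- cells than in wild type cells on the Control surface in all 3 experiments, and that difference enters the difference of responses. The share of all clusters with such a Control difference was not counted.

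Snord73b, a small nucleolar RNA of the box C/D class, was the exception, with a response that was larger in Card9-/- cells. It measured 7.36, 7.38 and 7.01 on Wild type Control, 6.94, 7.02 and 7.50 on Wild type IC, 7.32, 6.18 and 6.17 on Card9-/- Control and 7.57, 7.27 and 9.31 on Card9-/- IC. The Card9-/- IC array of experiment 3 stood far above the other 11. The differences were 0.67, 1.45 and 2.65 (fitted 1.59 ± 0.60, 95% interval 0.27 to 2.91).

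Lists of other functions had medians between -0.09 and 0.15, against -0.03 over all clusters. The median difference was -0.04 for 18 NRF2 antioxidant genes, -0.04 for 13 heat shock proteins, 0.10 for 18 glycolysis and hypoxia genes, 0.09 for 22 interferon-stimulated genes, -0.04 for 15 apoptosis regulators and -0.09 for 16 ribosomal protein genes. In these lists 0 genes had an unadjusted p under 0.05 in either direction. Casp4, the inflammatory caspase 11, came closest among the apoptosis regulators with -1.35, -0.44 and -0.51 (difference -0.77, 95% interval -1.54 to 0.00). For the 21 neutrophil granule and surface genes the median was 0.12, 11 were higher in all 3 experiments (18.2 percent of clusters above the median signal were), and all 21 intervals lay within -1 and 1. The 8 C-type lectin receptors had a median of 0.15, and 3 of them were below 0.

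Markers of other cell types gave medians near 0, apart from the B cell and plasma cell list. It had a median difference of 0.17 over 13 of 15 genes, with 0.33, 0.02 and 0.18 in the experiments. Of the 13, 6 were higher in all 3, against 12.4 percent of all clusters and 18.2 percent of those above the median signal. Its mean signal ran from 5.71 to 7.76 on Wild type Control, from 5.71 to 8.04 on Wild type IC, from 5.75 to 8.16 on Card9-/- Control and from 5.81 to 8.66 on Card9-/- IC. In experiment 1 it was 6.85 on Control and 6.61 on IC in wild type cells, against 7.74 and 7.80 in Card9-/- cells. In experiment 3 it was 7.76 and 8.04, against 8.16 and 8.66. In experiment 2 all 4 arrays lay between 5.71 and 5.81. Igha, the immunoglobulin A heavy chain, lay between 7.81 and 11.00 and differed by 0.47 (95% interval -0.00 to 0.94). Its level was higher in Card9-/- cells on both surfaces in all 3 experiments, by means of 0.61 on Control and 1.08 on IC. B cell transcripts were present in all 4 groups, and their part in the differences above was not tested. The median was 0.00 for 13 monocyte, macrophage and dendritic cell markers, 0.06 for 13 markers of eosinophils, basophils and mast cells, -0.02 for 12 of T cells and NK cells, -0.02 for 8 of erythroid cells and platelets and 0.08 for 11 of cycling progenitors. The mean signal of the eosinophil, basophil and mast cell list in experiment 3 was 7.38 on Control and 7.33 on IC in wild type cells. In Card9-/- cells it was 8.35 and 8.26 there, while in experiment 1 it lay below wild type on both surfaces. Adgre1, the macrophage marker F4/80, had -1.91, -0.68 and 0.08, so its value came mainly from experiment 1, like those of Ikbke and Nr4a1.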

How the data were processed

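Neutrophil RNA from 12 samples was measured on Affymetrix whole-transcript arrays. The table deposited by the authors holds a log2 signal for each transcript cluster on each array. The summarization, background correction, normalization and genome build were not given in the sources used here, so the scale's zero and the centring between arrays stay unknown. Array medians over the tested clusters ran from 5.27 to 5.93. Raw scanner files were not used here.

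Clusters were named from the platform's annotation. Of 28939 clusters 21789 had 1 gene, 1621 several and 5529 none, and no gene was named from a cluster with several. A gene with several clusters was represented by the one with the highest mean signal. Of 400 list genes 354 had a cluster of their own. A total of 476 clusters repeated the values of another.

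Groups and experiment numbers came from the sample titles. limma 3.58.1 in R 4.3.3 fitted 4 groups with the experiment as a fixed block (6 residual and 5.40 prior degrees of freedom), and p was two-sided, adjusted by Benjamini-Hochberg over all tested clusters. Same-numbered arrays of different groups deviated together (correlations of deviations from the group means from 0.671 to 0.867 over 18 pairs, against -0.727 to 0.355 over 36 pairs of different number). Named genes were the 12 of smallest p per direction that agreed in sign over 3 experiments, the 10 highest and 6 lowest by average response, up to 3 of smallest p per list, and the transcripts the study measured by other means with Card9, Bcl10 and Malt1. Further list members named in the text were chosen after their values were seen. The members, lists and rules were chosen with earlier results of these data known. The fit was tested on simulated data. Alternatives covered the block, the variance prior, normalization, the signal filter, repeated clusters and each experiment left out. Promoter windows were searched in Python 3.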

Additional observations from a re-analysis of the deposited data

Results flagged for a closer look

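In 8 named genes wild type cells moved one way on IC in all 3 experiments and Card9-/- cells the other way in all 3. The difference itself was tested with limma and passed the adjusted p for none of them. Up in wild type and down in Card9-/- were Adhfe1 (difference of responses -0.68), Pbld1 (-0.56), Tnf (-1.51) and Icam1 (-1.46). Down in wild type and up in Card9-/- were Pisd-ps2 (0.61), Mcts1 (0.53), Zfp942 (0.53) and 4930453N24Rik (0.48). All 8 were named for a small p of this same difference, Tnf and Icam1 within their lists, so their opposite movement is no separate result. The cause was not tested.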

How the results depend on the processing

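limma called 0 clusters for the difference of responses under every alternative run. The number at an unadjusted p under 0.05 was 1065. It was 15 with no replicate block and 59 in a two-way factorial test without moderation or block, 1699 with 1 value per experiment and 347 when only clusters above the median signal were tested, and from 636 to 1099 with 1 experiment left out, lowest without experiment 1. The number past the threshold for the average response, 3, was 0 with no replicate block, 19 with the replicate block as a random effect, 5 among clusters that name a gene (an alternative chosen after seeing the data) and from 0 to 24 with 1 experiment left out. The median difference of the 100 clusters highest on IC went from -0.355 to -0.00421 and that of the 100 lowest from 0.25 to 1.06 with 1 experiment left out, and the latter was 0.33 after median centring.

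None of the 24 genes named by smallest p changed sign under any alternative run. Of 1148 gene values under alternatives 15 did, in 11 genes, none of which had an unadjusted p under 0.05. Median centring gave 0.0138 for Ciart and 0.0303 for C130050O18Rik. With 1 experiment left out the ranges were -0.27 to 0.0712 for Ciart, -0.23 to 0.16 for C130050O18Rik, -0.35 to 0.0674 for Egr1, -0.25 to 0.00193 for Cd4, -0.0703 to 0.21 for Ube2c, -0.25 to 0.10 for Il1b, -0.0429 to 0.39 for Ccl3, -0.0431 to 0.26 for Cass4, -0.17 to 0.36 for Il5ra, -0.87 to 0.16 for Ppbp and -0.0917 to 0.65 for Tfrc. The cause was not tested. With 3 experiments the number of arrays limits the precision.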
